A study of Homo sapiens with 2 samples.

Results

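MDH2 and 8 other genes of the tricarboxylic acid cycle (MDH1, IDH2, CS, FH, SDHA, SDHB, OGDH and SUCLG1) were examined for 5-methylcytosine (m5C) in RNA, in 2 human mammary cell lines. The members were the cytosines on same-strand exons of GENCODE basic transcripts of these 9 genes, out of 61934 annotated genes, with a coverage of at least 10. This left 1881 of the 3146911 deposited sites in MCF10A, and from MDA-MB-468 1405 of 3489803. The genes were selected on measured values of these files, taken here to include the calls and methylation ratios of every member in both lines, and the sites by their coverage, so the levels of the 9 genes are given as a description and not as a test. MCF10A is a normal mammary epithelial line and MDA-MB-468 a breast cancer line. No treatment is named for either, and each gave 1 RNA bisulfite sequencing (RNA BS-Seq) library of poly(A)-selected RNA, with no replicate. A difference between the lines is therefore a difference between 2 libraries. The culture medium is also open, since the labels name the same medium for both lines and the methods a different one for each, and its part in any difference was not tested.

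The tricarboxylic acid cycle oxidizes acetyl groups to carbon dioxide in the mitochondrial matrix and passes the electrons to the respiratory chain. Its enzymes are made from nuclear genes, translated in the cytosol and imported, so their mRNAs are ordinary polyadenylated transcripts. MDH2 encodes the mitochondrial malate dehydrogenase, which oxidizes malate to oxaloacetate and so closes the cycle, and MDH1 the cytosolic enzyme of the malate-aspartate shuttle. In RNA BS-Seq, bisulfite converts unmodified cytosine to uracil and leaves m5C as cytosine. Cytosines in RNA that stayed folded, or that the reaction did not reach, also remain unconverted, so the assay counts unconverted cytosines rather than methyl groups. The methylation ratio of a site is its unconverted count over its coverage, which is the sum of unconverted and converted counts.

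MDH2 held nearly all of the called sites of the 9 genes. A site was called an m5C site when its unconverted share was above that of all kept sites of its line (one-sided Fisher's exact test with Benjamini-Hochberg adjustment over all kept sites at 0.05). In MCF10A 66 sites of the 9 genes were called, and in MDA-MB-468 75 were. Of these, 65 and 71 lay in MDH2. Over all kept sites 0.96% were called in MCF10A, compared with 0.84% in MDA-MB-468. In MDH2 22.0% of 295 kept sites were called in MCF10A, compared with 44.4% of 160 in MDA-MB-468. In the other 8 genes together 1 of 1586 and 4 of 1245 sites were called. MDH1, CS, FH, SDHA, SDHB and SUCLG1 had no called site in either line, but many of their sites were too shallow for a ratio of 20% to be called.

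All called sites of MDH2 lay in 1 stretch of the coding sequence, in exons 5, 6 and 7 of the 9-exon transcript. MDH2 is on the plus strand of chromosome 7 (hg19, 75677424 to 75696826), and its main transcript is 2170 nt long. The called cytosines ran from transcript position 507 to 759 in MCF10A, in codons 151 to 235. In MDA-MB-468 they ran from 520 to 774, in codons 155 to 240. Together these gave a span of 268 nt, from 507 to 774, which was drawn around the calls and holds 79 cytosines. The following windows, read from GRCh37 on the plus strand, show 1 part of the stretch in each exon. Cytosines called in both lines are in capitals. Each window was picked as the one around a called cytosine that held the most such cytosines in its exon. That every cytosine of these windows was called in both lines is therefore largely set by that choice, and their levels do not stand for whole exons.
MDH2 exon 5, chr7:75689745-75689773: aaCCCCaaCaaaatCttCggCgtgaCgaC
MDH2 exon 6, chr7:75692874-75692902: CCatgCtgggaagaCCatCatCCCCCtga
MDH2 exon 7, chr7:75693673-75693701: aCtttCCCCaggaCCagCtgaCagCaCtC
Within the exon 5 window the 10 cytosines were 29.9% unconverted in MCF10A and 67.9% in MDA-MB-468, over their summed counts. The 11 cytosines of the exon 6 window gave 45.8% and 73.3%, and the 12 of the exon 7 window 37.3% and 72.2%. The windows hold runs of cytosines as well as single ones.

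**Figure D1:**
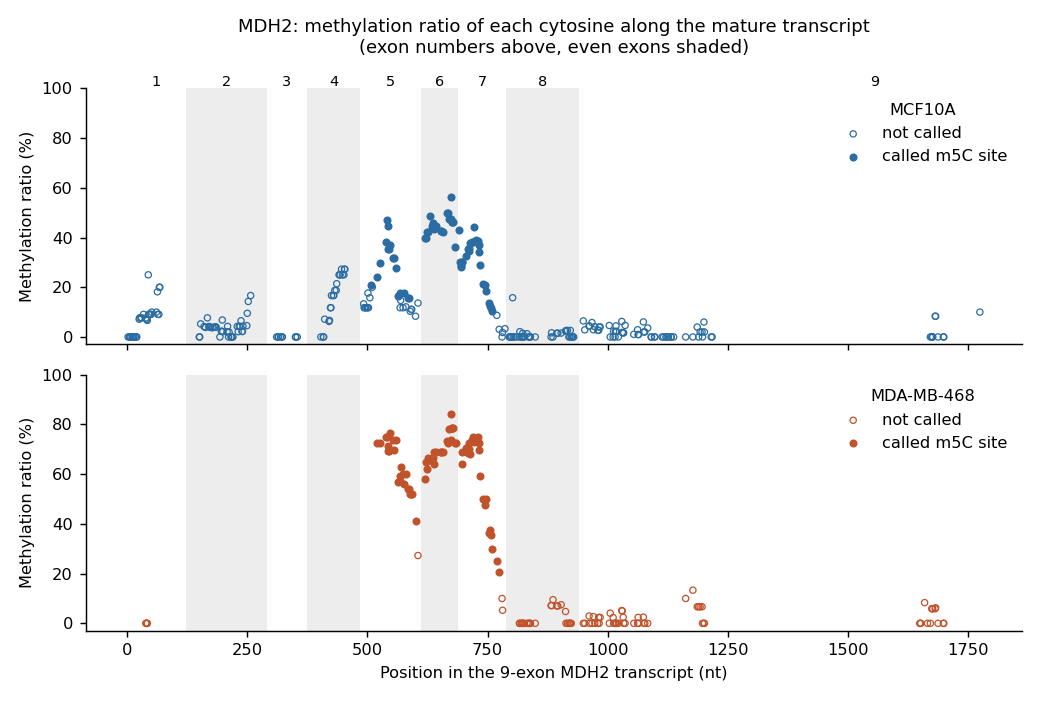
Methylation ratio (%) of each kept cytosine of MDH2 against its position in the mature transcript (nt), with MCF10A above and MDA-MB-468 below, filled where called and open where not. Called cytosines lie between positions 507 and 759 in MCF10A, with ratios of 10.4% to 56.25%. In MDA-MB-468 they lie between 520 and 774, with ratios of 20.8% to 84.2%.

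Within the stretch the methylation level was high in both libraries and higher in MDA-MB-468. In MCF10A 65 of its 77 kept sites were called, with ratios from 10.4% to 56.25% and a median of 36.8%. In MDA-MB-468 71 of 72 were called, with ratios from 20.8% to 84.2% and a median of 69.0%. Summed over the stretch, 28.8% of 3032 counts were unconverted in MCF10A (95% Wilson confidence interval 27.2% to 30.5%) and 62.2% of 1813 in MDA-MB-468 (59.9% to 64.4%). These intervals cover counting error only, and they are too narrow because a read can give a count at several neighboring cytosines. Outside the stretch MDH2 was 3.15% unconverted in MCF10A (2.77% to 3.57%, 217 sites) and 2.14% in MDA-MB-468 (1.63% to 2.81%, 88 sites). No site there was called in either line, by definition, because the stretch was drawn around all calls. Over all kept sites the unconverted share was 1.99% and 1.81%.

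Exon 6 had the highest level in both lines, and the level ended within exon 7. In exon 6 all 22 kept cytosines were called in MCF10A and all 23 in MDA-MB-468, and the unconverted share was 44.6% and 69.5%. At a coverage of at least 20 the highest ratios were also in exon 6, with 12 of 24 counts unconverted at position 75692888 in MCF10A and 18 of 23 at 75692892 in MDA-MB-468. In exon 5 it was 19.1% in MCF10A, with 17 of 36 sites called, and 60.9% in MDA-MB-468, with 24 of 25 called. Exon 7 gave 24.0% with 26 of 31 sites called and 53.5% with 24 of 26 called. Near the end of exon 7 the ratio fell over a few cytosines. The site at transcript position 774 had 2 unconverted of 65 counts in MCF10A, compared with 5 of 24 in MDA-MB-468, and the next, at 780, had 0 of 58 and 2 of 20. In exon 8 the unconverted share was 0.811% and 3.34%, and in exon 9, which holds the 3′UTR, 2.49% and 1.63%.

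The upstream border of the stretch was limited by depth. Exon 4 had 22 kept sites in MCF10A, with 49 of 308 counts unconverted (15.9%, 95% Wilson confidence interval 12.2% to 20.4%), and none was called. No site of exon 4 had more than 3 unconverted counts or a coverage above 18, and at a coverage of 10 a call needed 4 unconverted counts. The ratio there rose from 0 of 10 at transcript position 403 to 3 of 11 at 453. In exon 3 0 of 183 counts were unconverted in MCF10A, and in exon 2 3.21% of 1372 were. MDA-MB-468 had no kept site in exons 2, 3 and 4, so the start of its stretch could not be placed. Exon 1, which includes the 5′UTR, had 6.60% of 394 counts unconverted in MCF10A, compared with 0 of 48 in MDA-MB-468 (upper Wilson limit 7.41%).

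**Figure D2:**
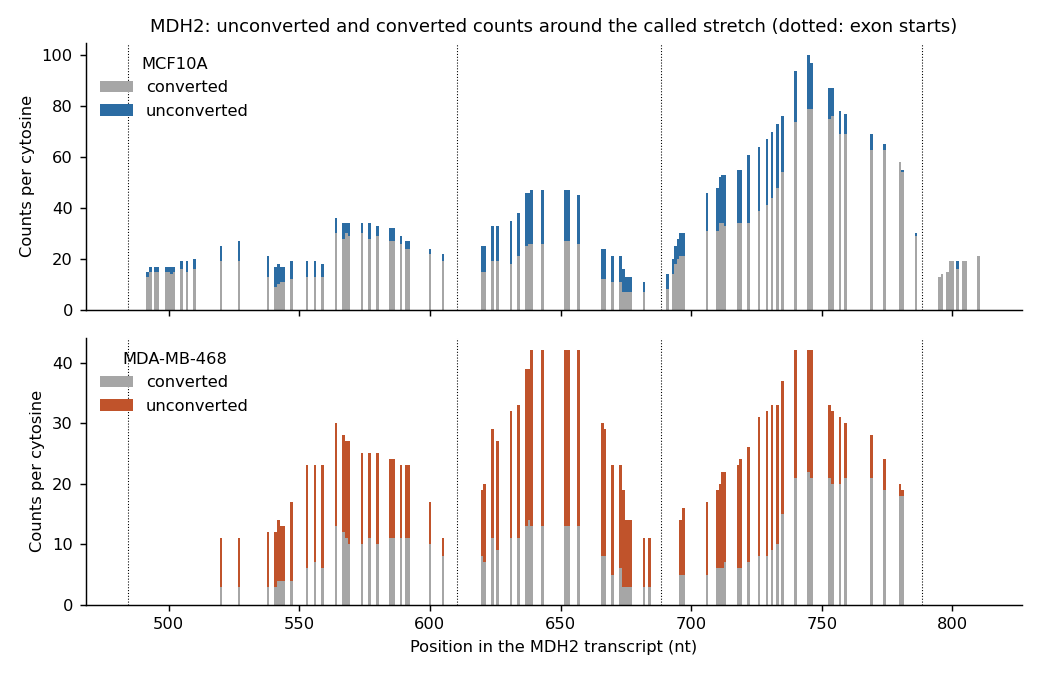
Converted (grey) and unconverted (colored) counts at each kept cytosine of MDH2 around the called stretch, against transcript position (nt), with a separate count axis for each line and dotted lines at exon starts. The median cytosine of the stretch had 25 converted and 9 unconverted counts in MCF10A and 8.5 and 15 in MDA-MB-468.

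Neighboring cytosines of the stretch often had similar counts. In MCF10A 49 of 76 pairs of neighboring kept sites differed by at most 1 unconverted count, and in MDA-MB-468 47 of 71 did, with 23 and 18 pairs equal. The largest steps between neighbors were 7 and 9 unconverted counts. The longest run of called neighbors held 48 cytosines in MCF10A, compared with 47 in MDA-MB-468. In MDA-MB-468 5 cytosines in a row, over 19 nt of exon 6 from position 75692861 to 75692879, each had 29 unconverted of 42 counts. Neighbors share reads, so the number of called sites is not a number of independent observations. With a window of 10 nt, 98.5% of the called MDH2 sites of MCF10A, and 100% of those of MDA-MB-468, had another called site nearby, and over all called nuclear sites 86.2% and 86.8% did. Distances were taken along the spliced transcript for MDH2 and along the genome for all called nuclear sites, so the shares are not fully alike.

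Called sites of the stretch occurred in every sequence context. All 16 trinucleotides centered on cytosine had called sites in both lines, and all 9 cytosines followed by guanine were called in each. By context the unconverted share ranged from 12.6% (CCG, 1 site) to 34.8% (CCC, 12 sites) in MCF10A, and from 37.5% (CCG) to 73.3% (TCT, 3 sites) in MDA-MB-468. Folding of the transcript at 70 degrees with the settings of the methods placed 14 of the 65 called sites in MCF10A and 15 of the 71 in MDA-MB-468 in predicted pairs. Leaving these out, with the calls otherwise unchanged, left 51 and 56 called sites in MDH2. Per the methods such sites of all transcripts were filtered before testing, which was not repeated here. The part of residual structure that a folding prediction misses was not tested. The introns between these exons held 1 site with a coverage of 5 or more in each line, with 7 of 8 and 3 of 5 counts unconverted, and no site lay on the opposite strand.

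Between the lines MDH2 differed in 1 direction across the whole stretch. Of the 154 MDH2 sites kept in both lines, 60 were called in both, 0 in MCF10A alone and 10 in MDA-MB-468 alone. Among all 812729 shared sites, 5043 were called in both, 4521 in MCF10A alone and 2488 in MDA-MB-468 alone. At the 60 MDH2 sites called in both, the median ratio was 37.4% in MCF10A, compared with 69.1% in MDA-MB-468. The ranges overlapped, from 10.4% to 56.25% and from 30% to 84.2%, but every one of the 60 sites was higher in MDA-MB-468, by 17.1 to 48.7 percentage points with a median of 31.9. In the stretch 71 of 71 shared sites were higher in MDA-MB-468. These sites share reads, so their common direction counts far fewer than 71 observations. The stretch was drawn around the calls of both lines, and the sites called in MDA-MB-468 alone entered it through their level there. The 71 of 71 is therefore a description and not a test. Of the 83 shared sites outside the stretch, 23 were higher and 40 lower in MDA-MB-468, and 20 were equal.

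No single MDH2 site passed as differential. The counts of each of the 812729 shared sites were compared by Fisher's exact test, two-sided and with Benjamini-Hochberg adjustment over all of them. Of the 154 MDH2 sites 0 were called, and 49 had an unadjusted p under 0.05 by this test, beside 9284 of all shared sites. The stretch held 48 of the 49, but it was drawn around the calls and its neighbors share reads, so this is a description only. Over all shared sites 0.0202% were called higher in MDA-MB-468 and 0.0691% lower. The lowest adjusted p in MDH2, from Fisher's exact test, was 0.114, at chr7 position 75689774 in exon 5, with 4 of 34 counts unconverted in MCF10A (11.8%), compared with 16 of 27 in MDA-MB-468 (59.3%). The median coverage at the sites called in both lines was 34.5 and 24, and a missed threshold at this depth does not show that the levels are alike.

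**Figure D3:**
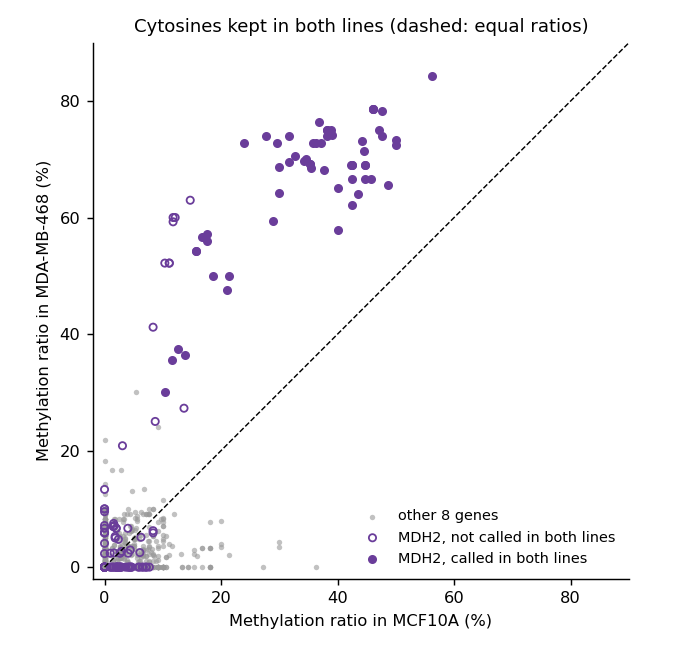
Methylation ratio (%) in MDA-MB-468 against that in MCF10A for cytosines kept in both lines, with the 154 sites of MDH2 in purple, filled where called in both lines, and the 972 of the other 8 genes in grey. The 60 filled points all lie above the line of equal ratios, and most grey points lie below 20% on both axes.

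The other 8 genes lay far below MDH2. Together they were 2.44% unconverted in MCF10A (95% Wilson confidence interval 2.29% to 2.60%, 36932 counts) and 1.54% in MDA-MB-468 (1.42% to 1.66%, 39719 counts). The median over genes with at least 20 kept sites was 1.79% and 1.45%. MDH2, at 10.6% of 10379 counts and 28.3% of 4152 counts, stood at the 99.3 and 99.9 percentile of those genes. By the number of called sites it was 12th of 8866 protein-coding genes in MCF10A and 6th of 8098 in MDA-MB-468, with mitochondrial genes included.

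**Figure D4:**
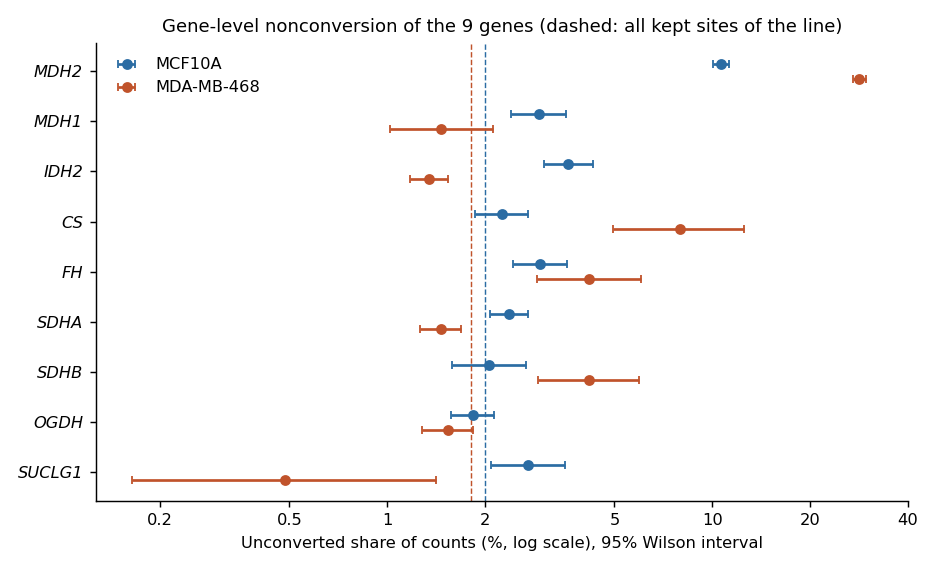
Unconverted share of the summed counts (%, log axis) of each of the 9 genes in MCF10A and MDA-MB-468, with 95% Wilson intervals for counting error, and dashed lines at 1.99% and 1.81% for all kept sites. MDH2 stands apart at 10.6% and 28.3%, and the other genes lie between 0.483% and 7.96%.

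MDH1, the cytosolic counterpart, had no called site at 105 sites in MCF10A or at 51 in MDA-MB-468. Its unconverted share was 2.92% (95% Wilson confidence interval 2.40% to 3.55%) and 1.47% (1.02% to 2.11%). At a coverage of at least 20 its highest ratios were 4 of 53 counts in MCF10A (7.55%), compared with 2 of 21 in MDA-MB-468 (9.52%), both in the coding sequence. All kept MDH1 sites were deep enough for a ratio of 40% to be called, and 51 of 105 and 36 of 51 for a ratio of 20%.

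CS, or citrate synthase, which condenses acetyl-CoA with oxaloacetate at the entry of the cycle, had no called site. A ratio of 20% could be called at 62 of its 190 MCF10A sites but at 0 of its 17 MDA-MB-468 sites. All of them were deep enough for a ratio of 40%. CS was 2.25% unconverted at 190 sites in MCF10A (1.86% to 2.71%) and 7.96% at 17 sites in MDA-MB-468 (4.96% to 12.5%). The higher value rests on 16 unconverted of 201 counts. Each kept site from position 56667389 to 56667420, in exon 10, had 1 of 12 counts unconverted. The rest of the 16 lay at 56667430 (3 of 18) and 56679764 (3 of 10). Neighbors can share reads, so the 16 counts are not independent and the interval is too narrow. At the same 17 sites MCF10A gave 2.55%. Of the CS sites, 20 (MCF10A) and 6 (MDA-MB-468) also lie on an overlapping gene of the same strand.

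IDH2, the mitochondrial isocitrate dehydrogenase that makes NADPH, had 1 called site in MCF10A and 2 in MDA-MB-468, at different cytosines. For comparison, 5043 of all shared sites were called in both lines, 4521 in MCF10A alone and 2488 in MDA-MB-468 alone. IDH2 lies on the minus strand of chromosome 15. Its 3 called cytosines are shown in capitals, each in its exon and read from GRCh37 on the minus strand, and none lay within 30 nt of another called site.
IDH2 exon 3, chr15:90633800-90633828: ctcccaaaccgtgaCcagactgatgacca
IDH2 exon 7, chr15:90630344-90630361: cagacatcctggccCagg
IDH2 exon 9, chr15:90628253-90628281: gtggcctggagcacCgggggaagctggat
The exon 3 site had 4 of 11 counts unconverted in MCF10A (adjusted p = 0.0062, Fisher's exact test) and 0 of 17 in MDA-MB-468, and the 1 kept cytosine within 10 nt of it in MCF10A had 3 of 11 unconverted. The exon 7 site had 6 of 25 in MDA-MB-468 (24%, adjusted p = 0.00085, Fisher's exact test) and 1 of 11 in MCF10A, while the 5 kept cytosines within 10 nt of it in MDA-MB-468 had 0 of 146 unconverted. The exon 9 site had 8 of 87 in MDA-MB-468 (9.20%, adjusted p = 0.024, Fisher's exact test) and 1 of 15 in MCF10A, and its 5 kept neighbors in MDA-MB-468 had 9 of 411 unconverted. None of these sites was in a predicted pair, and none differed between the lines after adjustment. With Benjamini-Yekutieli adjustment the exon 7 call was kept and the calls in exons 3 and 9 were lost.

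IDH2 and CS were covered very differently in the libraries. IDH2 had 3384 summed counts in MCF10A against 16004 in MDA-MB-468, and CS 4674 against 201, out of 60347403 and 42058400 nuclear counts. In a culture, fewer cells that express a gene and less RNA per cell cannot be told apart in such values. IDH2 was 3.61% unconverted in MCF10A (3.03% to 4.29%) and 1.34% in MDA-MB-468 (1.18% to 1.53%), and at the 208 sites kept in both lines 3.61% and 1.37%.

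OGDH, the 2-oxoglutarate-decarboxylating subunit of the 2-oxoglutarate dehydrogenase complex, had no called site at 455 sites in MCF10A and 2 at 358 in MDA-MB-468. Both called sites lie in the 3′UTR on the plus strand of chromosome 7, 41 nt apart, and are the capitals below.
OGDH 3′UTR, chr7:44748115-44748143: atgacccggggcagCtggcaggagagagc
OGDH 3′UTR, chr7:44748156-44748184: tggcacagaaagggCagcttcagtctctg
At the upstream site 6 of 46 counts were unconverted in MDA-MB-468 (13.0%, adjusted p = 0.023, Fisher's exact test) and 2 of 42 in MCF10A. At the downstream site 5 of 23 were unconverted in MDA-MB-468 (21.7%, adjusted p = 0.0073, Fisher's exact test) and 0 of 12 in MCF10A. In MDA-MB-468 the kept cytosines within 10 nt of the upstream site had 11 of 246 counts unconverted, and those near the downstream site 0 of 94. Both calls were lost with Benjamini-Yekutieli adjustment. Over the gene 1.83% of counts were unconverted in MCF10A (1.57% to 2.14%) and 1.53% in MDA-MB-468 (1.28% to 1.83%).

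**Figure D5:**
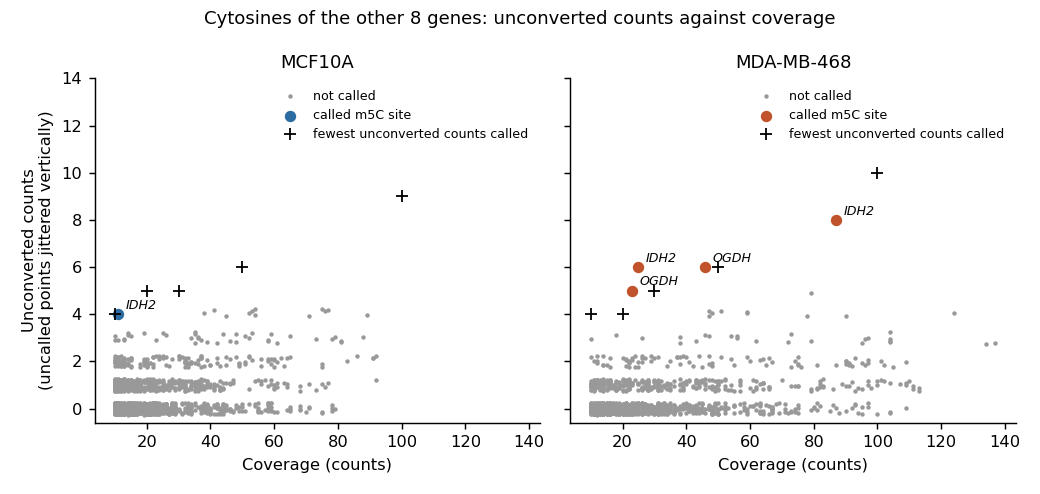
Unconverted counts against coverage at each kept cytosine of the 8 genes other than MDH2, in MCF10A (left) and MDA-MB-468 (right), with called sites labelled by gene and crosses at the fewest unconverted counts called at coverages of 10, 20, 30, 50 and 100. The 5 called sites have 4 to 8 unconverted counts and lie close to the crosses.

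SUCLG1, SDHA, SDHB and FH, which carry the cycle from succinyl-CoA to malate, had no called site in either line. A ratio of 20% could be called in MDA-MB-468 at 3 of 39 SUCLG1 and 3 of 43 FH sites. For SDHB this held at 13 of 30 sites, and for SDHA at 211 of 335. The MCF10A values were 27 of 76 (SUCLG1), 49 of 148 (FH), 30 of 97 (SDHB) and 154 of 307 (SDHA). All kept sites of these genes were deep enough for a ratio of 40%. At the 0.84% called over all kept MDA-MB-468 sites, few calls or none would fall on 30 to 43 sites. SUCLG1, the alpha subunit of succinyl-CoA ligase, was 2.71% unconverted in MCF10A (2.09% to 3.52%) and 0.483% in MDA-MB-468 (0.164% to 1.41%), with 3 of 621 counts in the latter. SDHA, the flavoprotein of succinate dehydrogenase, gave 2.37% (2.07% to 2.71%) and 1.46% (1.26% to 1.69%). SDHB, its iron-sulfur subunit, gave 2.06% (1.58% to 2.68%) and 4.17% (2.90% to 5.96%), the latter from 28 of 671 counts. FH, the fumarase that hydrates fumarate to malate, gave 2.94% (2.43% to 3.57%) and 4.18% (2.89% to 6.01%), the latter from 27 of 646 counts. MDA-MB-468 was higher in CS, FH and SDHB, and lower in the other 5 of the 8 genes, but the direction of 3 genes turned with the coverage minimum. With a minimum of 20, FH was 2.71% in MCF10A against 1.81% in MDA-MB-468 and OGDH 1.37% against 1.52%, and with a minimum of 5 SDHB was 4.54% against 4.01%. These shares rest on few unconverted counts, and neighbors can share reads, so the intervals are too narrow. In MDA-MB-468 each kept SDHB site from 17350513 to 17350531 had 1 of 31 counts unconverted. Each kept FH site from 241663840 to 241663860 had 1 of 11. SUCLG1 in MDA-MB-468 moved from 0.483% to 0% with a minimum of 20 and to 1.79% with a minimum of 5. SDHA has 4 annotated pseudogenes, and 252 of its 307 MCF10A sites and 277 of its 335 MDA-MB-468 sites also lie on an overlapping gene of the same strand, so its counts are uncertain. Pseudogenes named after MDH1, CS, FH and SDHB are also annotated, and none named after MDH2. A match by name does not show whether other loci share MDH2 sequence.

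Of the 972 sites of these 8 genes that were kept in both lines, none was differential. Over all shared sites 0.0202% were called higher in MDA-MB-468 and 0.0691% lower. At these shares a set of this size would hold few calls or none. Fisher's exact test gave an unadjusted p under 0.05 at 7 of the 972 sites, beside 9284 of all 812729 shared sites. The lowest adjusted p of each gene, from the same test, was 1. Their ratio was higher in MDA-MB-468 at 237 sites and lower at 338, and over all shared nuclear sites it was higher at 194483 and lower at 273671.

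By mRNA region, all called sites of the 9 genes lay in the coding sequence except the OGDH pair. A site in the 5′UTR of any basic protein-coding transcript counted as 5′UTR, also where the main transcript is coding, as in exon 3 of CS. Of the sites so counted 0 of 89 were called in MCF10A, compared with 0 of 40 in MDA-MB-468. Among all kept nuclear sites the 5′UTR had the highest called share, 2.24% and 1.95%. At such shares few calls or none would fall on so few sites. In the coding sequence 66 of 1549 and 73 of 1105 sites were called, and 0.615% and 0.551% were among all kept nuclear sites. In the 3′UTR 0 of 243 and 2 of 260 were called, beside 0.837% and 0.740%. The coding count is that of the MDH2 stretch, and without MDH2 1 of 1332 and 2 of 976 coding sites were called.

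Among 24 other genes of the cycle and its entry and exit steps, the most called sites in a gene were 6. Sites were kept in 23 of them in MCF10A, compared with 19 in MDA-MB-468, and 11 of 3924 sites (0.280%) and 2 of 2349 (0.0851%) were called, beside 0.96% and 0.84% of all kept sites. In MCF10A the calls were 6 in MPC2, a subunit of the mitochondrial pyruvate carrier, 2 in PC, the pyruvate carboxylase that makes oxaloacetate, and 1 each in IDH3B, DLST and IDH1. In MDA-MB-468 both calls were in PC. MPC2 was 4.79% unconverted in MCF10A (4.04% to 5.67%) and 3.17% in MDA-MB-468 (2.33% to 4.30%).

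The markers followed the labelled lines in part. LAMB3, a laminin chain of basal epithelium, had 1201 kept sites in MCF10A and none in MDA-MB-468, and ITGB4 and KRT5 also had more counts in MCF10A. Of the other basal markers, KRT17 (9338 counts in MCF10A against 84655 in MDA-MB-468) and CDH3 (1080 against 2673) had more counts in MDA-MB-468, and KRT14 had no kept site in either line. EGFR, which is amplified in MDA-MB-468, had 13249 summed counts in MCF10A against 151119 in MDA-MB-468. CDKN2A, deleted in MCF10A, had 0 and 194 kept sites, and RB1, lost in MDA-MB-468, had 11 and 0. KRT8 and KRT18 were covered in both, but the epithelial markers EPCAM and CDH1 had no kept site in MCF10A. Of the markers of other cell types, PTPRC, CD3E, COL1A2 and PECAM1 had no kept site, and COL1A1 had 267 in MDA-MB-468. The files summed to 76098976 (MCF10A) and 90960018 counts (MDA-MB-468), and the median coverage of a kept site was 18 in either line. A call needed 4 unconverted counts at a coverage of 10 and 6 at 50, so low ratios were not detectable at most sites. Just below the coverage minimum, 155 sites of the 9 genes at a coverage of 9 were 7.53% unconverted in MCF10A and 119 were 2.89% in MDA-MB-468. At a coverage of 10, 173 and 66 sites were 4.62% and 2.58% unconverted.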

How the data were processed

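RNA BS-Seq of poly(A)-selected RNA, treated with bisulfite at 60 degrees for 8 hours, was analysed for 1 library each of MCF10A and MDA-MB-468. Per the methods the authors trimmed reads with Trim Galore and used MeRanTK for alignment to hg19 and for counting. The submitters' processing notes name Trim Galore and Bismark. The deposited files hold unconverted and converted counts per cytosine, not normalized, from a coverage of 5 upward, before any structure or exon filter. Every nuclear position fell on a cytosine of GRCh37.

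Here the sites kept had at least 10 counts and lay on same-strand exons of GENCODE release 44 basic transcripts, or on the mitochondrial chromosome. Calls used Fisher's exact test, one-sided, against the summed counts of all kept sites of the line, and differential sites a two-sided one (QNB of the methods was not installed), both with Benjamini-Hochberg adjustment at 0.05. Gene-level shares carry 95% Wilson intervals, for counting error only, and these are too narrow where neighboring cytosines share reads. Where transcripts overlap, regions took the order 5′UTR, CDS, 3′UTR. Transcripts were folded with RNAfold of ViennaRNA 2.7.2 (maximum expected accuracy, gamma 0.1, 70 degrees, pairing distance of at most 150 nt). Python 3.11.15, scipy 1.17.1 and pandas 2.3.3 were used, and the code was tested on simulated counts.

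The member genes, the pathway list and the markers were chosen with earlier results of these data known. Sites to be named were those called in both lines, described as 1 stretch of MDH2, up to 5 called sites per gene and line with the highest ratio at a coverage of at least 20, and differential sites, and of the pathway list the genes with a call. The stretch, the windows shown from it, the sites at its borders and its site of lowest p were picked after their values were seen. So was the IDH2 site of exon 3, at a coverage of 11. Alternatives covered the coverage minimum, background, test, adjustment, ratio, structure, transcripts, region order and window. Comparisons of gene sets were not made.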

Additional observations from a re-analysis of the deposited data

How the results depend on the processing

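The calls in MDH2 numbered 51 to 66 in MCF10A and 51 to 76 in MDA-MB-468 over all alternatives. The few calls in the other 8 genes (1 in MCF10A, 4 in MDA-MB-468) depended on the settings. With a coverage minimum of 20 there were 0 in MCF10A, with a minimum of 5 there were 21 and 8, and with Benjamini-Yekutieli adjustment 0 and 1. A ratio of at least 0.2 left 2 in MDA-MB-468. The unconverted share of MDH2 without its called sites came to 3.53% (MCF10A) and 2.26% (MDA-MB-468). It was 12.6% in MCF10A at sites kept in both lines, 11.6% there as the mean of site ratios, and 24.9% in MDA-MB-468 with a coverage minimum of 5. The share of the other 8 genes in MCF10A was 1.998% with a minimum of 20, 3.06% with a minimum of 5, 2.27% at sites kept in both lines and 2.83% as the mean of site ratios. In MDA-MB-468 it was 1.69% with a minimum of 5 and 1.68% as the mean of site ratios. With a window of 3 nt, 84.8% and 82.7% of the called sites of the 9 genes had another nearby, against 97.0% and 94.7% with 10 nt. Single genes moved more. By over 1.5 times, IDH2 in MCF10A went from 3.61% to 2.07%, SUCLG1 in MCF10A from 2.71% to 1.51% and FH in MDA-MB-468 from 4.18% to 1.81% with a minimum of 20. SDHB in MCF10A went from 2.06% to 4.54% with a minimum of 5. At sites kept in both lines SDHB (1.25%), FH (1.95%) and SUCLG1 (1.54%) were lower in MCF10A. SUCLG1 in MDA-MB-468 went from 0.483% to 0% with a minimum of 20 and to 1.79% with 5. The direction between the lines turned in FH and OGDH with a minimum of 20 and in SDHB with a minimum of 5. Differential sites stayed at 0, except that 26 MDH2 sites were higher in MDA-MB-468, beside 5.18% of the 12052 sites then tested, when only sites called in at least 1 line were tested. That set is defined by the calls themselves and includes sites that entered only through MDA-MB-468, and the test covers counting error only, so this count supports nothing. The cause of the other changes was not tested. No paired analysis was possible because each line has 1 library.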

Other observations

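Most of the calls added by a coverage minimum of 5 lay in SDHB, as was seen after the values were known. In MCF10A 14 cytosines within 37 nt of SDHB exon 4 (chromosome 1, 17355122 to 17355158) had 3 to 5 unconverted counts at coverages of 7 to 9, with ratios from 42.9% to 71.4%, and MDA-MB-468 had no site there. The most frequent value there was 5 of 8 counts, and neighbors can share reads. FH added 4 such calls in MCF10A, IDH2 1 (position 90633828, 3 of 7 counts, near the called site of exon 3), and OGDH 1 in MCF10A and 4 in MDA-MB-468.

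At coverages of 5 to 9, exon 2 of MDH2 in MDA-MB-468 had 34 of 194 counts unconverted at 33 sites (17.5%), beside 8 of 51 at 8 sites in MCF10A (15.7%). Exons 3 and 4 of MDH2 had no site at these coverages in MDA-MB-468.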
